A study of Mus musculus with 6 samples.

Results

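Slc2a4, Hk2, Slc16a1, Slc16a3, Gpd1 and Gpd2 are 6 genes through which a muscle fibre takes up glucose, exchanges lactate with its surroundings and passes cytosolic reducing power to the mitochondrion. They were chosen by name, and all 6 were found among the 11815 genes of the deposited table. RNA of the gastrocnemius, a calf muscle, was sequenced from wild-type (WT) mice and from mice without the long non-coding RNA lnc-ORA (KO). The KO animals were made on the C57BL/6 background by injecting fertilized eggs with Cas9 mRNA and a pair of guide RNAs, which removed 5147 bp holding the whole lnc-ORA transcript. Founders were bred to wild-type mice. The KO mice were 15 weeks old. For the WT mice no age was available here, and for either group no sex, zygosity or number of founder lines. WT was sequenced as 3 libraries, numbered 2, 3 and 4, and KO as 3, numbered 1, 2 and 3. The labels do not say that each came from a separate mouse, and p-values therefore reflect the scatter among libraries, which may be technical. The level of lnc-ORA was not analysed here, and genotypes were taken as labelled.

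As background, insulin and contraction bring the glucose transporter GLUT4, made from Slc2a4, to the fibre surface, and hexokinase 2, made from Hk2, traps the glucose inside as glucose 6-phosphate. Lactate crosses the membrane with a proton through monocarboxylate transporters: MCT1 (Slc16a1) is typical of oxidative fibres, and MCT4 (Slc16a3) of glycolytic fibres that export lactate. In the glycerol phosphate shuttle the cytosolic dehydrogenase Gpd1 oxidises NADH by making glycerol 3-phosphate, and the mitochondrial dehydrogenase Gpd2 passes those electrons to ubiquinone.

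Counted reads per library, as inferred from the values, ranged from 54370181 to 69693905. Values are RPKM, counted reads scaled to gene length and library total. Of 11815 genes, 7574 passed a floor of 1 RPKM in 3 or more libraries, and these entered a limma test on log2(RPKM + 1). A gene is called at a Benjamini-Hochberg adjusted p under 0.05. Markers of skeletal muscle were abundant in every library, with 12 of them summing to 136579 to 171050 RPKM. The WT libraries differed in RNA of slow-fibre markers. The 8 slow-fibre markers summed to 982, 153 and 617 RPKM in WT replicates 2, 3 and 4. In KO they summed to 301 to 486 RPKM. The median log2 fold change of all tested genes was -0.09. It moved by 0.10 when library medians were made equal and by 0.11 when library totals left out the 10 most abundant genes, which took 44.4% to 48.3% of reads in WT and 50.2% to 53.9% in KO. In the authors' own deposited comparison the median log2 fold change of the same genes was 0.01. Changes below use the RPKM as deposited, called the deposited scaling, unless another is named.

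One gene of the 6 was called, and it rose: Gpd1. Over all tested genes 17.3% were called, 3.83% higher and 13.5% lower in KO, so 1 of 6 is close to the share over all genes. With equal library medians the calls over all genes split into 602 higher and 665 lower, against 290 and 1021 with the deposited scaling. The other 5 genes did not pass, and in each of them the libraries of the groups overlapped. Groups that did not overlap were found for 39.2% of all tested genes, 9.22% with KO higher and 30% with KO lower. An unadjusted p under 0.05 was found for 33.4% of tested genes and, among the 6, for Gpd1. All 6 genes passed the filter in every library, and no 50-base stretch of the longest transcript of any of the 6 occurs in a transcript of another gene.

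Gpd1 was the most abundant of the 6 per unit length in both genotypes. In WT its lowest library, at 35.3 RPKM, lay above the highest library of the next gene, Slc2a4, at 22.4. Slc2a4 and Hk2 overlapped with each other, and below them WT values of Gpd2, Slc16a3 and Slc16a1 were each apart from their neighbours. In KO the same pair overlapped again, and Gpd2 (lowest library 14.4 RPKM) also overlapped with Slc16a3 (highest library 15.4). Slc16a1 was the lowest in both groups, with a mean of 2.57 RPKM over the 6 libraries, which is higher than 38.2% of tested genes. The other 5 stood higher than 79.5% to 93.1% of tested genes.

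**Figure D1:**
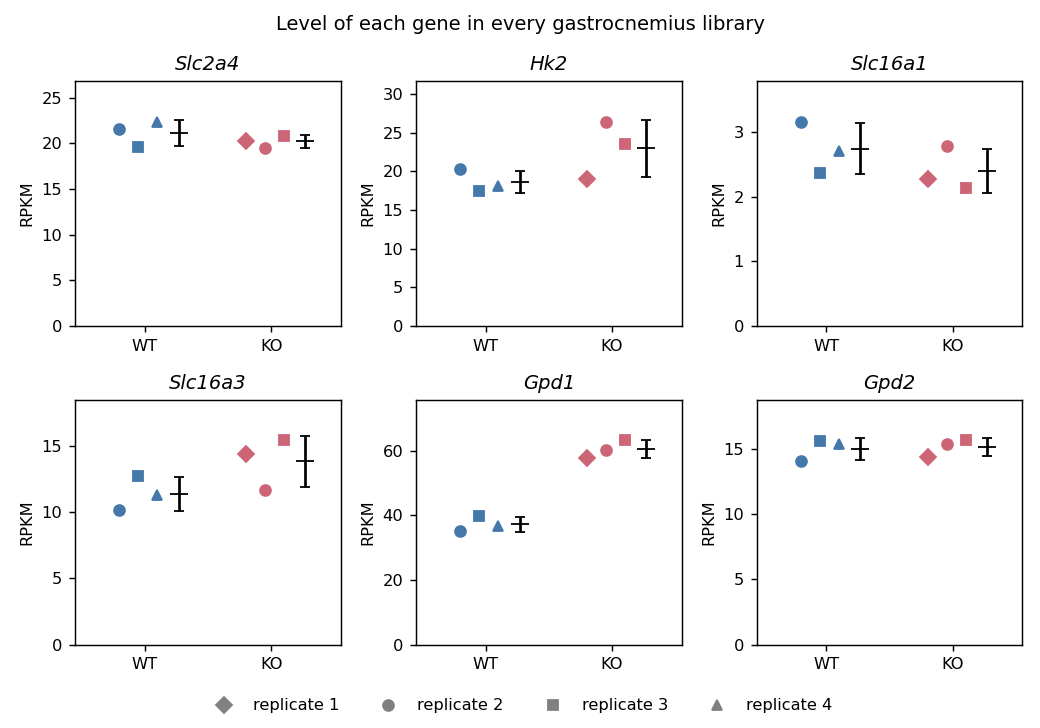
RPKM of each of the 6 genes in every library, 1 panel per gene with its own axis from 0; blue is WT, red is KO, symbols mark the replicate number, and the black bar is the mean with SD (n = 3). Gpd1 alone has its KO libraries (57.7 to 63.3) apart from its WT libraries (35.3 to 39.8).

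The glucose transporter Slc2a4 was at nearly the same level in both groups. Its RPKM was 21.6, 19.6 and 22.4 in WT replicates 2, 3 and 4 and 20.3, 19.5 and 20.9 in KO replicates 1, 2 and 3. The KO values fell almost wholly inside the WT range. The means were 21.2 ± 1.42 and 20.2 ± 0.673 RPKM (SD, n = 3 each). KO minus WT was -0.06 on the log2 scale, with a 95% interval of -0.25 to 0.13 (limma adjusted p = 0.63). The sign was positive with equal library medians (0.04) and with totals without the 10 most abundant genes (0.08). The gene lies on chromosome 11 (69942539 to 69948188, minus strand, GRCm38).

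Hexokinase Hk2 had a higher mean in KO, from 1 KO library near the WT level and the other two above it. WT replicates 2, 3 and 4 stood at 20.3, 17.5 and 18.1 RPKM. KO replicates 1, 2 and 3 stood at 19.0, 26.4 and 23.5 RPKM, so only KO replicate 1 lay within the WT range. The means were 18.6 ± 1.46 and 23.0 ± 3.72 RPKM (SD, n = 3 each). The log2 fold change of 0.28 (95% interval -0.0070 to 0.56) did not pass (limma adjusted p = 0.158). With equal library medians it did (0.38, adjusted p = 0.0398), as it did when library totals left out the 10 most abundant genes (0.42, adjusted p = 0.0269). The gene lies on chromosome 6 (82725025 to 82774454, minus strand, GRCm38).

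Of 14 listed glucose transporters and hexokinases, 7 were in the table used. The widely expressed partners of Slc2a4 and Hk2 were low: Hk1 lay between 0.269 and 0.445 RPKM, and the basal transporter Slc2a1 between 0.357 and 0.884 RPKM, and neither was tested.

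Of 23 listed genes that move GLUT4 between its storage vesicles and the surface, 16 were tested, 1 fell and none rose in limma, where 1 was higher and 2 lower at an unadjusted p under 0.05. Of all tested genes 3.83% were called higher and 13.5% lower, and 33.4% had an unadjusted p under 0.05. The median log2 fold change of the list was -0.02, against -0.09 for all tested genes. The gene that fell was Tbc1d4, also called AS160, the Rab GTPase-activating protein that holds GLUT4 inside until insulin acts. Tbc1d4 stood at 1.35, 1.33 and 1.34 RPKM in WT replicates 2, 3 and 4. In KO replicates 1, 2 and 3 it stood at 0.652, 0.693 and 0.822 RPKM, below the lowest WT library. It changed by -0.44 on the log2(RPKM + 1) scale (SE 0.06, limma adjusted p = 0.00502). Tbc1d4 passed the filter on low values through its WT libraries alone, so its count in the list is no support. It was also called with no filter (adjusted p = 0.00547). That scale understates the change of low genes, and with a pseudocount of 0.1 the change of Tbc1d4 was -0.81, with voom on recovered reads -0.90.

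The lactate transporters did not pass in either direction. Slc16a1 stood at 3.15, 2.36 and 2.71 RPKM in WT replicates 2, 3 and 4 and at 2.27, 2.78 and 2.14 RPKM in KO replicates 1, 2 and 3. The groups overlapped, and the log2 fold change was -0.14 (95% interval -0.39 to 0.11, limma adjusted p = 0.395). At 569 to 973 reads per library, counting error was at most 4.19%, while replicates of Slc16a1 varied by an SD of 14.4% in WT and 14.2% in KO. The order of the 3 WT libraries was that of the summed slow-fibre markers, highest in replicate 2 and lowest in replicate 3. That order was not particular to slow-fibre markers. Fibroblast markers summed to 31.2, 18.2 and 21.6 RPKM in WT replicates 2, 3 and 4, and macrophage markers to 6.72, 2.98 and 3.92. Endothelial markers were also highest in replicate 2, with replicates 3 and 4 nearly level. Muscle, adipocyte, Schwann cell and red blood cell markers had other orders. In whole muscle, fewer cells of a type and less RNA per cell cannot be told apart.

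Slc16a3 stood at 10.2, 12.7 and 11.3 RPKM in WT replicates 2, 3 and 4, the reverse of that order. In KO replicates 1, 2 and 3 it stood at 14.4, 11.7 and 15.4 RPKM, so only KO replicate 2 lay within the WT range. The means were 11.4 ± 1.27 and 13.8 ± 1.93 RPKM (SD, n = 3 each). The log2 fold change was 0.26 (95% interval -0.022 to 0.54, limma adjusted p = 0.18). It did not pass under either other scaling (0.36 and 0.40, adjusted p of 0.123 and 0.092). The gene lies on chromosome 11 (120948480 to 120960868, plus strand) and Slc16a1 on chromosome 3 (104638668 to 104658462, plus strand, GRCm38). The part of fibre type or of other cell types in these values was not tested.

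Slc16a1 is also made by Schwann cells and red blood cells. Of 11 Schwann cell and nerve markers 5 were tested and 4 fell, where 13.5% of all tested genes fell. Of the 4, Mbp and Prx passed the filter on low values through WT alone. The summed level was 36.5 to 55.4 RPKM in WT and 11.6 to 14.6 RPKM in KO. Red blood cell markers summed to 26.9 to 45.9 RPKM in WT and 19.0 to 112 RPKM in KO, with none of 5 called in limma and none at an unadjusted p under 0.05. Alas2, the haem synthesis gene of red cell precursors, lay between 0.291 and 1.75 RPKM. KO replicate 2 had the most red blood cell signal and the highest Slc16a1 and Hk2 of the KO libraries. The part of these cells in the values was not tested.

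Slc16a3 and Slc16a1 were also compared as a ratio within each library, which no library scaling can move. The ratio was 3.22, 5.37 and 4.16 in WT replicates 2, 3 and 4 and 6.34, 4.2 and 7.21 in KO replicates 1, 2 and 3. The means were 4.25 ± 1.07 and 5.92 ± 1.55 (SD, n = 3 each), and the groups overlapped. The log2 difference of 0.47 had an exact two-sided permutation p of 0.2, also 0.2 after Benjamini-Hochberg adjustment over the 3 ratios tested. The smallest p that 3 against 3 libraries allow is 0.1. Without WT replicate 2 the difference was 0.29, and without KO replicate 3 it was 0.31.

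Around the transporters, none of 9 tested genes of monocarboxylate transport and lactate metabolism was called in limma, of 20 listed. At an unadjusted p under 0.05, 1 was higher and 1 lower, where 33.4% of all tested genes passed in either direction. The higher one was Ldha, the lactate dehydrogenase subunit of glycolytic fibres, at 138, 163 and 172 RPKM in WT replicates 2, 3 and 4 and 188, 192 and 215 RPKM in KO replicates 1, 2 and 3 (log2 fold change 0.33, limma adjusted p = 0.0698). Its groups did not overlap, which held for 9.22% of tested genes with KO higher. Ldha passed (0.48, adjusted p = 0.0377) when library totals left out the 10 most abundant genes, and it passed without WT replicate 4 (0.40, adjusted p = 0.0378).

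Ldhb, the subunit of oxidative tissue, was the lower one, at a log2 fold change of -0.66 (limma adjusted p = 0.0756). Its WT libraries spread from 43.1 RPKM in replicate 3 to 79.8 in replicate 2, and KO stood at 34.6 to 46.8 RPKM. The WT order was that of the slow-fibre markers, and also of the fibroblast and macrophage markers. Without WT replicate 3 it passed (-0.92, adjusted p = 0.0198). Shared sequence makes both lactate dehydrogenase values less certain, since 16.6% of the 50-base stretches of Ldha and 27% of those of Ldhb occur in transcripts of other genes. Basigin (Bsg), the chaperone that carries both monocarboxylate transporters to the membrane, was abundant and level. Bsg stood at 205 ± 12.9 RPKM in WT and 205 ± 12.2 RPKM in KO (SD, n = 3 each).

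The sequences upstream of Hk2, Slc16a1 and Slc16a3 are shown because Hif1a, a factor whose binding core reads ACGTG and which is known to act on hexokinase and lactate export genes, was itself called lower (values below). Capitals mark ACGTG on either strand, and each line stops at or shortly before an annotated transcript start, which for Slc16a3 is one inside the span of the gene. The sequences are from RefSeq (GRCm38.p6), which held windows for 4 of the 6 genes.
Hk2, chr6:82774455-82774704, minus strand: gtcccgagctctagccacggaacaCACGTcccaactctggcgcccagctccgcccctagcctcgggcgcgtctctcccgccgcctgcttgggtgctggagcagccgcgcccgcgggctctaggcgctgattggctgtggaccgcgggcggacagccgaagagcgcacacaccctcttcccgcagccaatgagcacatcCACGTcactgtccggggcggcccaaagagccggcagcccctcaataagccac
Slc16a1, chr3:104638414-104638663, plus strand: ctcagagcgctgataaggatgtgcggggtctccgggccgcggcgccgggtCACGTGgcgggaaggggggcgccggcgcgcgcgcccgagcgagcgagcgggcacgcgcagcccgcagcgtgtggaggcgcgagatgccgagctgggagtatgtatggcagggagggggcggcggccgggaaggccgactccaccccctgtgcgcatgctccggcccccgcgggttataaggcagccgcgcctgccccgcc
Slc16a3, chr11:120948817-120949052, plus strand: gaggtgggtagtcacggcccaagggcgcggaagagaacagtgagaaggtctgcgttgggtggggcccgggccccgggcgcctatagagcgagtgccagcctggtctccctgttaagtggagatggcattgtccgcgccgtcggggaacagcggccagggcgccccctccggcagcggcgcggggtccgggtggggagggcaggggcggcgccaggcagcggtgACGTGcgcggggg
Hk2 held 2 matches and Slc16a3 held 1. The other gene with windows, Gpd2, had 2 shorter ones, with 0 and 1 match. The 2 matches of Slc16a1 are the overlapping strands of 1 palindrome, CACGTG, which is also an E-box. Of all 32851 windows of 250 bases upstream of RefSeq starts, 16.6% hold the motif. A match is a description of these letters only.

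The glycerol phosphate shuttle held the one call among the 6 genes. Gpd1 stood at 35.3, 39.8 and 36.8 RPKM in WT replicates 2, 3 and 4. In KO replicates 1, 2 and 3 it stood at 57.7, 60.4 and 63.3 RPKM, so every KO library lay above every WT library. The means were 37.3 ± 2.31 and 60.5 ± 2.78 RPKM (SD, n = 3 each), a 1.62-fold difference of means. The log2 fold change was 0.68 (SE 0.08, 95% interval 0.49 to 0.88, limma adjusted p = 0.00277), and 1.19% of tested genes had a smaller p. It was called in all 12 alternatives run, with log2 fold changes of 0.65 to 0.83 and adjusted p of 0.00214 to 0.0212. In the authors' deposited table its log2 fold change was 0.71 with an FDR of 0.0183. The FDR of the other 5 genes in the authors' deposited table ran from 0.0997 for Hk2 to 0.825 for Slc2a4. That table holds 191 genes with an FDR under 0.05, 84 higher and 107 lower, which is fewer than limma called here.

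Gpd2, the mitochondrial partner, was at the same level in both groups within the spread of the libraries. It stood at 14.1, 15.6 and 15.4 RPKM in WT replicates 2, 3 and 4 and at 14.4, 15.4 and 15.7 RPKM in KO replicates 1, 2 and 3. The log2 fold change was 0.01 with a 95% interval of -0.17 to 0.20 (limma adjusted p = 0.94). With equal library medians it was 0.11, and with totals without the 10 most abundant genes 0.15, and neither passed. Gpd2 lies on chromosome 2 (57237635 to 57370719, plus strand, GRCm38), and 487 bp of its exons overlap exons of A930012O16Rik on the other strand.

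The ratio of Gpd1 to Gpd2 was the steadiest of the ratios within groups. It was 2.50, 2.55 and 2.39 in WT replicates 2, 3 and 4 and 4.01, 3.93 and 4.03 in KO replicates 1, 2 and 3, with no overlap. The means were 2.48 ± 0.0817 and 3.99 ± 0.0558 (SD, n = 3 each), and the log2 difference was 0.69. Its exact two-sided permutation p was 0.1, the smallest that 3 against 3 allow, and 0.2 adjusted over the 3 ratios. Leaving out any 1 library left the difference between 0.66 and 0.71. The ratio of Hk2 to Slc2a4 went from 0.880 ± 0.067 to 1.14 ± 0.208 (SD, n = 3 each). Its groups overlapped, with KO replicate 1 at 0.936 below WT replicate 2 at 0.940 (exact two-sided permutation p = 0.2). The log2 difference of Hk2 to Slc2a4 was 0.36, and 0.22 without KO replicate 2.

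**Figure D2:**
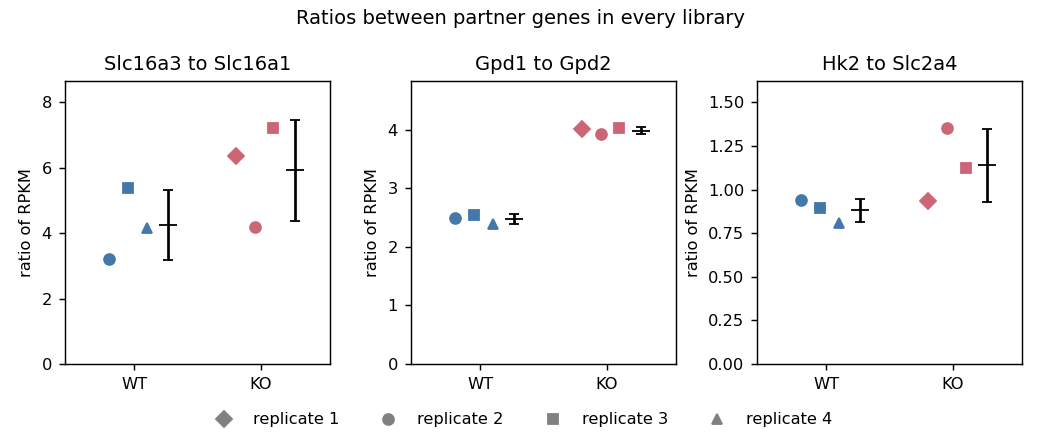
Ratios of RPKM between partner genes in every library, from 0; blue is WT, red is KO, symbols mark the replicate number, and the black bar is the mean with SD (n = 3). Gpd1 to Gpd2 stands at 2.39 to 2.55 in WT and 3.93 to 4.03 in KO, while the groups overlap for the other two ratios.

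In a part of its exons, reads of Gpd1 could not be separated from those of an antisense gene. Gpd1 lies on chromosome 15 (99717515 to 99725005, plus strand, GRCm38), and 384 bp of its exons overlap exons of Gm16537 on the minus strand: 226 bp in coding exon 6 of 8 and 158 bp in the 3′ untranslated part of exon 8. Gm16537 stood at 48.0, 56.0 and 52.5 RPKM in WT replicates 2, 3 and 4 and at 78.5, 79.8 and 86.1 RPKM in KO replicates 1, 2 and 3, and it rose by 0.64 on the log2 scale (limma adjusted p = 0.0047). For every 100 reads of Gpd1, Gm16537 had 32.2, 33.4 and 33.8 reads in the WT libraries and 32.2, 31.3 and 32.3 in the KO libraries. The counts of the 2 genes thus kept nearly 1 ratio in all 6 libraries. No source used here says whether counting used strand, so the signal of the 2 genes cannot be told apart where they overlap. The shared 384 bp lie within 2961 bp of exon for Gpd1 and 702 bp for Gm16537. They are thus a small part of Gpd1 and the larger part of Gm16537. Exon 6 is shown to mark the shared stretch, which is in capitals.
Gpd1 exon 6, chr15:99721935-99722168, plus strand: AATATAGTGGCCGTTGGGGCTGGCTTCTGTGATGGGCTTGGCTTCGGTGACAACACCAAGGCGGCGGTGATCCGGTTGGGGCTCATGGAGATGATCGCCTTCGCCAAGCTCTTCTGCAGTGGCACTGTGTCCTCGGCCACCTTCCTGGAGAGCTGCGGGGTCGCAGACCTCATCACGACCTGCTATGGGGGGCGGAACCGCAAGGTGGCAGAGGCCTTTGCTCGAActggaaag
The last 8 bases of the exon, in lower case, lie outside the antisense exon. The sequence is that of the GENCODE M21 transcript.

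Of the malate-aspartate shuttle, the other carrier of cytosolic reducing power, 6 genes were tested and 1 was called. The 6 log2 fold changes ran from -0.39 to -0.05, where 5122 of all 7574 tested genes were below 0. The signs lean on the scaling, since in the authors' deposited table Mdh2 stood at 0.02 and Slc25a11 at 0.12. The gene called was Mdh1, the cytosolic malate dehydrogenase, at 58.3, 50.7 and 63.3 RPKM in WT replicates 2, 3 and 4 and 43.9, 46.5 and 40.0 RPKM in KO replicates 1, 2 and 3 (log2 fold change -0.39, limma adjusted p = 0.0397). Its call ended with equal library medians (adjusted p = 0.0983) and with totals without the 10 most abundant genes (0.138). It also ended without KO replicate 1, 2 or 3 and without WT replicate 2 or 4 (largest adjusted p 0.154). Over both shuttles, 8 of 10 listed genes were tested, 1 rose and 1 fell, and the median log2 fold change was -0.12. Of all tested genes 3.83% rose and 13.5% fell. Gpd1l, the close relative of Gpd1, lay between 0.714 and 0.981 RPKM over the 6 libraries and was not tested.

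A list of 17 symbols, older names included, held genes that make or use glycerol 3-phosphate beyond the shuttle, and genes of triglyceride breakdown. Of these 8 were tested, 1 fell and none rose, where 13.5% of all tested genes fell and 3.83% rose. The median log2 fold change of the list was -0.17. The one that fell was Pnpla2, the triglyceride lipase ATGL that starts the release of fatty acids from lipid droplets, which itself neither makes nor uses glycerol 3-phosphate. Pnpla2 went from 39.4 ± 10.9 RPKM in WT to 19.8 ± 2.09 RPKM in KO (SD, n = 3 each), which is -0.93 on the log2 scale (limma adjusted p = 0.013). Its WT libraries ran from 30.1 to 51.3 RPKM and all lay above the KO libraries at 17.5 to 21.6. The call ended without KO replicate 1 or 3 (adjusted p of 0.0536 and 0.051).

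Gpd1 and Slc2a4 are also strongly expressed by fat cells. Of 11 adipocyte markers 3 were tested, 2 fell (Fabp4 and Car3) and none rose, where 13.5% of all tested genes fell. Neither Fabp4 nor Car3 passed in the authors' deposited table (FDR of 0.127 and 0.405). The other one tested, the lipid droplet gene Plin4, had every KO library above every WT library (WT 27.4 ± 3.84 and KO 34.9 ± 0.807 RPKM, SD, n = 3 each) and did not pass (log2 fold change 0.35, limma adjusted p = 0.0624). The adipocyte markers summed to 240 to 261 RPKM in WT and 153 to 175 RPKM in KO, and most of that sum is Car3, which muscle also makes. The defining adipocyte genes Adipoq and Plin1 were not analysed here. The part of fat cells in the level of Gpd1 was not tested.

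Regulators known to act on Slc2a4, Hk2 or Slc16a1 made a list of 22. Of these 15 were tested, 1 rose and 2 fell, with a median log2 fold change of -0.08. Over all tested genes 3.83% were called higher and 13.5% lower in KO, so these counts are near the share over all genes. Ppargc1a, the coactivator that raises Slc2a4 and mitochondrial genes, stood at 2.26, 1.68 and 1.37 RPKM in WT replicates 2, 3 and 4 and at 3.51, 5.49 and 4.0 RPKM in KO replicates 1, 2 and 3 (log2 fold change 0.94, limma adjusted p = 0.0082). Mef2d, a member of the factor family that binds the Slc2a4 promoter, went from 10.8 ± 1.22 to 7.86 ± 0.503 RPKM (SD, n = 3 each, limma adjusted p = 0.0248). Its call ended without KO replicate 1, 2 or 3 or WT replicate 3 (adjusted p of up to 0.0962).

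Hif1a, the oxygen-regulated factor named above, stood at 2.54, 2.0 and 1.62 RPKM in WT replicates 2, 3 and 4 and at 1.09, 1.43 and 1.32 RPKM in KO replicates 1, 2 and 3. It changed by -0.41 on the log2(RPKM + 1) scale (limma adjusted p = 0.0465), and the call ended (adjusted p = 0.0602) when library totals left out the 10 most abundant genes. It was also lost without KO replicate 1, 2 or 3 and without WT replicate 2 or 3 (largest adjusted p 0.153). With a pseudocount of 0.1 the change of Hif1a was -0.63, and with voom on recovered reads -0.67. Exons of Hif1a overlap 330 bp of the antisense gene Gm15283, and those of Mef2d overlap 531 bp of 1700113A16Rik.

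**Figure D3:**
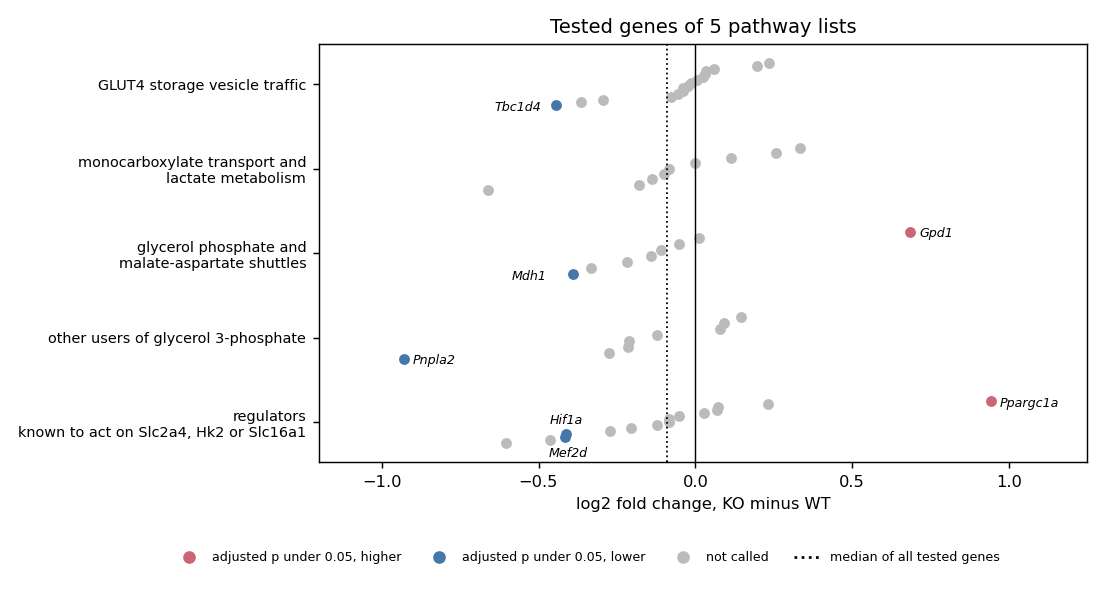
Log2 fold change (KO minus WT, x axis) of every tested gene of 5 pathway lists, 1 point per gene and 1 row per list; red and blue points passed an adjusted p of 0.05 as higher or lower. In these lists 2 genes rose (Gpd1, Ppargc1a) and 5 fell (Tbc1d4, which passed the filter through WT alone, Mdh1, Pnpla2, Mef2d, Hif1a), and the dotted line is the median of all tested genes at -0.09.

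In the authors' deposited table Ppargc1a had an FDR of 0.0495. None of the 5 pathway genes called lower here passed in the authors' deposited table, with an FDR of 0.148 for Tbc1d4, 0.119 for Mdh1, 0.112 for Pnpla2, 0.326 for Mef2d and 0.141 for Hif1a.

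The genes most like each of the 6 over the 6 libraries were ranked by Pearson's r of log2(RPKM + 1), as a description. Gpd1 was followed by its antisense neighbour Gm16537 (0.997), by the calcium kinase subunit Camk2b (0.994) and by Enpp4 (0.992). For Hk2 these were Ski (0.999), Usp15 (0.998) and Trak2 (0.988), for Slc16a1 Ccdc80 (0.993), Gm16156 (0.982) and Gm4366 (0.978), and for Slc2a4 Tmem11 (0.988) as the first and Gstp2 (0.980) as the third in rank. Slc16a3 was followed by Gm11583 (0.982), Ssr3 (0.960) and Actr3b (0.960), and Gpd2 by Cox15 (0.978), Aktip (0.950) and Metap1 (0.948). With 6 libraries such values are common: 213 tested genes had an r above 0.9 with Gpd1 and 144 with Hk2. The ranking leans on the scaling, since 7 of the 18 genes stayed among the 3 highest with equal library medians. Shared sequence makes some of these genes less certain. Of the 50-base stretches of Gm4366 82% occur in transcripts of other genes, and of those of Gstp2 72.6%. Exons of Gm16156 overlap exons of Slc12a4 on the other strand, and those of Gm11583 overlap exons of Kpnb1.

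**Figure D4:**
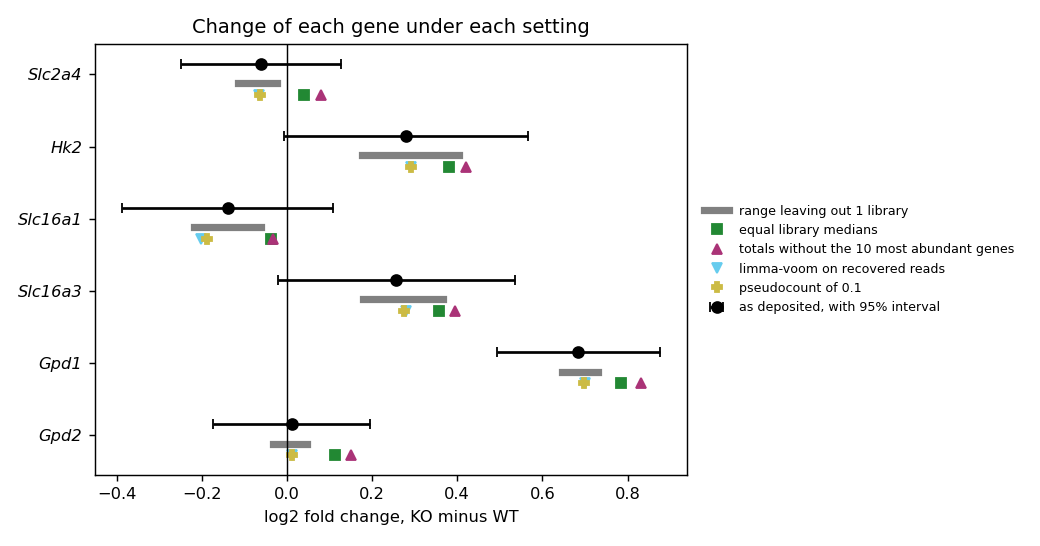
Log2 fold change (KO minus WT, x axis) of each gene: black points are the deposited scaling with the 95% interval, grey bars the range when 1 library is left out, and coloured symbols other settings. Estimates of Gpd1 lie at 0.65 to 0.83 throughout, and Gpd1 alone has a 95% interval that leaves out 0. Estimates of Slc2a4 lie on either side of 0, and those of Gpd2 fall below 0 only when 1 library is left out.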

How the data were processed

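The authors fragmented mRNA and primed cDNA with random hexamers, per the labels' protocols. The build is GRCm39 per the submitters' processing notes; no source used here names the aligner, the counter or the use of strand. The authors deposited RPKM per gene and library; the unit was inferred from the values. The deposited log2 fold change and log2 CPM, the F score, and the p-value and FDR columns are the authors' own, per the file headers. Whole reads were recovered (within 0.02) for 99.99% of genes from RPKM, length and total. The library totals were themselves inferred from the values, as those that give whole reads. Of genes with a GENCODE M21 length, 80.36% gave whole reads at that length, and other lengths were also inferred from the values. For the 6 genes described the lengths are those of GENCODE M21.

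The main test was limma-trend (limma 3.58.1, R 4.3.3) on log2(RPKM + 1), with genotype as the only term, checked on simulated data. Ratios were tested by exact permutation. Alternatives were a pseudocount of 0.1, no filter, 2 other scalings, limma-voom on recovered reads, replicate number as a block, and each library left out. The block fit rests on replicates 2 and 3 of each genotype, since numbers 1 and 4 each occur in 1 genotype.

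The 6 genes and the gene lists were chosen with earlier results of these data known. Named were the 6 genes, up to 6 called genes per pathway list (or the smallest p), close relatives, defining markers and the 3 most correlated genes of each. A few genes and results chosen by this rule are left out of the text. Neighbouring and shared sequence came from GENCODE M21 and upstream windows from RefSeq, so coordinates are of GRCm38. Replicates differed by more than sampling noise (a chi-square of 25.3 or more per degree of freedom).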

Additional observations from a re-analysis of the deposited data

How the results depend on the processing

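The call of Gpd1 and the direction of Hk2, Slc16a1 and Slc16a3 were the same in all 12 alternatives run. The number of the 6 genes called higher was 2 in place of 1, by the addition of Hk2, with equal library medians, with totals without the 10 most abundant genes and with replicate number as a block. None of the 6 was called lower by limma in any alternative, and none was lower at an unadjusted p under 0.05 in the main fit. Over all genes, calls were 602 higher and 665 lower with equal medians and 680 and 613 with totals without the 10 most abundant genes. Leaving out 1 library gave 117 to 344 higher and 354 to 1293 lower, against 290 and 1021. In the 6 pathway lists the 3 higher calls became 5 with equal medians, 7 with the other totals and 5 with the block, and the 5 lower calls became 3 with the other totals and 10 with the block. Leaving out 1 library gave 1 to 6 lower pathway calls.

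Values whose sign turned were not called on either side. Slc2a4, at -0.06, was at 0.039 with equal medians and 0.081 with the other totals. Bsg, at -0.0026, was at 0.10 and 0.15 under these, at 0.0057 with the block and between -0.051 and 0.048 without 1 library. Gpd2, at 0.01, ran from -0.032 to 0.046 without 1 library.

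Replicate numbers 2 and 3 occur in both genotypes, but the labels do not say that they mark a shared litter or day. Deviations of same-numbered libraries from their group means correlated at 0.479 and 0.27. Those of WT replicate 4 and KO replicate 1, which share no number, correlated at 0.431, and the remaining pairs at -0.389 to -0.052. Numbers 1 and 4 each occur in 1 genotype, so the fit with replicate number as a block compares only replicates 2 and 3 of each genotype. KO replicate 1, where Hk2 lay within the WT range, and WT replicate 4 add nothing to its estimates. The block leaves little to estimate the spread of each gene, so the p-values lean on spread that limma borrows from other genes. In that fit Hk2 passed (log2 fold change 0.38, limma adjusted p = 0.0211), and Gpd1 stayed called (0.71, adjusted p = 0.00381). Ldha (0.44, adjusted p = 0.0133) and Ldhb (-0.53, adjusted p = 0.0283) passed with the block and not in the main fit. At 3 libraries a group, the 95% interval of the 5 genes that were not called still allows log2 changes of up to 0.56.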
